A study of Mus musculus with 30 samples.

Results

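The 9 genes described here encode enzymes or enzyme subunits of the tricarboxylic acid (TCA) cycle: Cs, Idh3a, Idh3b, Idh3g, Ogdh, Sucla2, Suclg1, Fh1 and Mdh2. They were chosen by name, as the 9 rows carrying these symbols among the 36103 genes of the count table. The choice was made with earlier results of these data known. RNA-seq counts came from male mice of the 129Pas background at 5 weeks of age, either carrying a whole-body deletion of Mtm1 (Mtm1KO) or wild type (WT, littermates). Mtm1 encodes myotubularin, the phosphoinositide phosphatase that is lost in X-linked myotubular myopathy. There were 4 WT and 4 Mtm1KO libraries of gastrocnemius, a fast hindlimb muscle, 4 and 3 of diaphragm, 4 and 4 of heart, and 3 and 4 of liver, which makes 30 in all. RNA was taken from whole organs, so that each library mixes the cell types of its tissue.

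The TCA cycle runs in the mitochondrial matrix. Citrate synthase (Cs) joins acetyl-CoA to oxaloacetate, and the NAD-dependent isocitrate dehydrogenase, built from a catalytic alpha subunit (Idh3a) with the beta and gamma subunits (Idh3b, Idh3g), carries out the first oxidative decarboxylation. Ogdh is the E1 component of the 2-oxoglutarate dehydrogenase complex. Succinyl-CoA synthetase pairs its alpha subunit (Suclg1) with either an ADP-forming partner that yields ATP (Sucla2) or a GDP-forming partner that yields GTP (Suclg2). Fumarase (Fh1) and malate dehydrogenase (Mdh2) return the carbon to oxaloacetate. The reduced cofactors made on the way feed the respiratory chain, and heart and oxidative muscle fibres are known for a high content of these enzymes.

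In the mm10 annotation the genes lie at chr10:128337734-128362479 (Cs, plus strand), chr9:54586334-54604661 (Idh3a, plus), chr2:130279309-130284547 (Idh3b, minus), chrX:73778963-73786897 (Idh3g, minus), chr11:6291633-6356642 (Ogdh, plus), chr14:73525319-73596142 (Sucla2, plus), chr6:73248382-73276911 (Suclg1, plus), chr1:175600374-175625635 (Fh1, minus) and chr5:135778480-135790398 (Mdh2, plus). Their exons cover between 2701 bases (Idh3g) and 5779 bases (Cs). Idh3b and Fh1 each overlap a gene on the opposite strand (Nop56 and Kmo), and Cs overlaps Gm23182 on its own strand. The strand setting of the counting was not given in the sources used here, so reads of any member that lie in an overlap with another gene may have been assigned to either gene or dropped.

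Since the members moved together in the gastrocnemius (below), the 250 bases before the transcription start were read from RefSeq (GRCm38.p6), which held an entry for 8 of the 9 genes. The letters searched, on both strands, were TNAAGGTCA (the element of estrogen-related receptors), the motif of nuclear respiratory factor 1 (NRF1), CCGGAAG (ETS factors), CCAAT, the GC box GGGCGG, and TATAAA. None of the members' 13 promoters held TNAAGGTCA or TATAAA, which were present in 1.14% and 12.4% of all 32851 promoters. The NRF1 motif was found in 1 of the 13 against 3.74% of all promoters, and CCGGAAG in 1 against 6.91%. CCAAT was present in 7 of the 13 and the GC box in 6, against 33.8% and 32.7% of all promoters, with 6 of the 13 belonging to Ogdh and overlapping in part. By gene, 4 of the 8 had CCAAT and 5 had the GC box in any of their promoters. The 2 promoters with a match to the NRF1 motif (Sucla2) or CCGGAAG (Idh3g) are shown, 5′ to 3′ on the strand of the gene, with the match in capitals. They lie at chrX:73786898-73787147 (Idh3g, minus strand) and chr14:73552536-73552785 (Sucla2, plus strand). The Sucla2 stretch lies inside the annotated gene given above, as the RefSeq start differs from the start of that annotation.
Idh3g: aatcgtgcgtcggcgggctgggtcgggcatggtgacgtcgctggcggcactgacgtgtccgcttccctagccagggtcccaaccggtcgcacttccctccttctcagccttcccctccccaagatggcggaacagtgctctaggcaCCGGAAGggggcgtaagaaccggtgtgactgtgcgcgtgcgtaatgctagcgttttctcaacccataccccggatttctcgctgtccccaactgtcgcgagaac
Sucla2: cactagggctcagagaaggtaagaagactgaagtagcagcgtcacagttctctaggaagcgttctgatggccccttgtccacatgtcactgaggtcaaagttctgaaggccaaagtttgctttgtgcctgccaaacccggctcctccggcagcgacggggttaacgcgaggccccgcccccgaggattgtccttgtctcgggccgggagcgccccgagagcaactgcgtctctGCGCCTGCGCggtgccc

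Libraries held 24873817 to 44289343 counts, and each member had between 1071 and 101358 counts in every library, so that counting error was small beside the spread between mice. All 9 members passed the filter on low counts in every tissue. Mtm1 stood at 12.9 to 31.1 CPM (counts scaled to a common library total) in the WT libraries and at 3.28 to 6.09 in the Mtm1KO libraries, so that every library matched its genotype label. Myh6, the cardiac alpha myosin, was at 21875 CPM or more in every heart library, and Myh4, a fast-fibre myosin, at 26416 or more in every gastrocnemius library. The diaphragm libraries held liver transcripts: Alb, which encodes serum albumin, ranged from 284 to 31876 CPM in them against 99.99 at most in heart and gastrocnemius. One WT heart library, WT 4, stood apart from the rest for the members: their summed level was 7047 CPM, against 9273 to 9891 in the other WT hearts and 9675 to 10834 in the Mtm1KO hearts.

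In the WT mice the 9 transcripts were abundant in all 3 striated muscles and mostly scarcer in the liver. Levels per length are given in CPM per kb of exon, as mean ± SD over 4 libraries (3 for liver). Ogdh reached 397 ± 82.3 in heart, 283 ± 64.5 in diaphragm, 279 ± 14.4 in gastrocnemius and 55.4 ± 2.03 in liver. Cs followed the same order at the ends, with heart at 244 ± 47.2, gastrocnemius at 212 ± 5.58, diaphragm at 189 ± 32.9 and liver at 31.6 ± 2.42. Both were thus highest in the heart by mean, yet the heart ranges were wide and included the low library WT 4.

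Idh3a showed the widest span among the members. It stood at 191 ± 8.70 in gastrocnemius, 117 ± 15.1 in heart, 105 ± 19.5 in diaphragm and 9.92 ± 0.881 in liver, where it was the scarcest of the 9. Its partners spanned less: Idh3b was at 190.4 ± 12.4 in the gastrocnemius and 70.9 ± 6.35 in the liver, and Idh3g at 183 ± 8.18 and 35.5 ± 1.79. By this measure the transcripts of the 3 subunits were near a 1 to 1 to 1 level in the gastrocnemius and far from it in the liver. The ratio between genes depends on the length used, here all annotated exons of a gene.

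Suclg1 differed least between tissues, with gastrocnemius at 78.7 ± 3.61, diaphragm at 62.3 ± 5.63, heart at 60.6 ± 9.49 and liver at 59.3 ± 4.59. Sucla2, its ADP-forming partner, was at 158 ± 8.42 in the gastrocnemius and 43.7 ± 5.75 in the liver. Mdh2 was the most abundant member in gastrocnemius (348 ± 21.4), diaphragm (303 ± 35.1) and liver (80.1 ± 3.75), and second to Ogdh in the heart (298 ± 43.2). Fh1 stood at 106 ± 18.2 in heart, 98.9 ± 3.05 in gastrocnemius, 93.1 ± 10.8 in diaphragm and 58.3 ± 5.91 in liver.

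**Figure D1:**
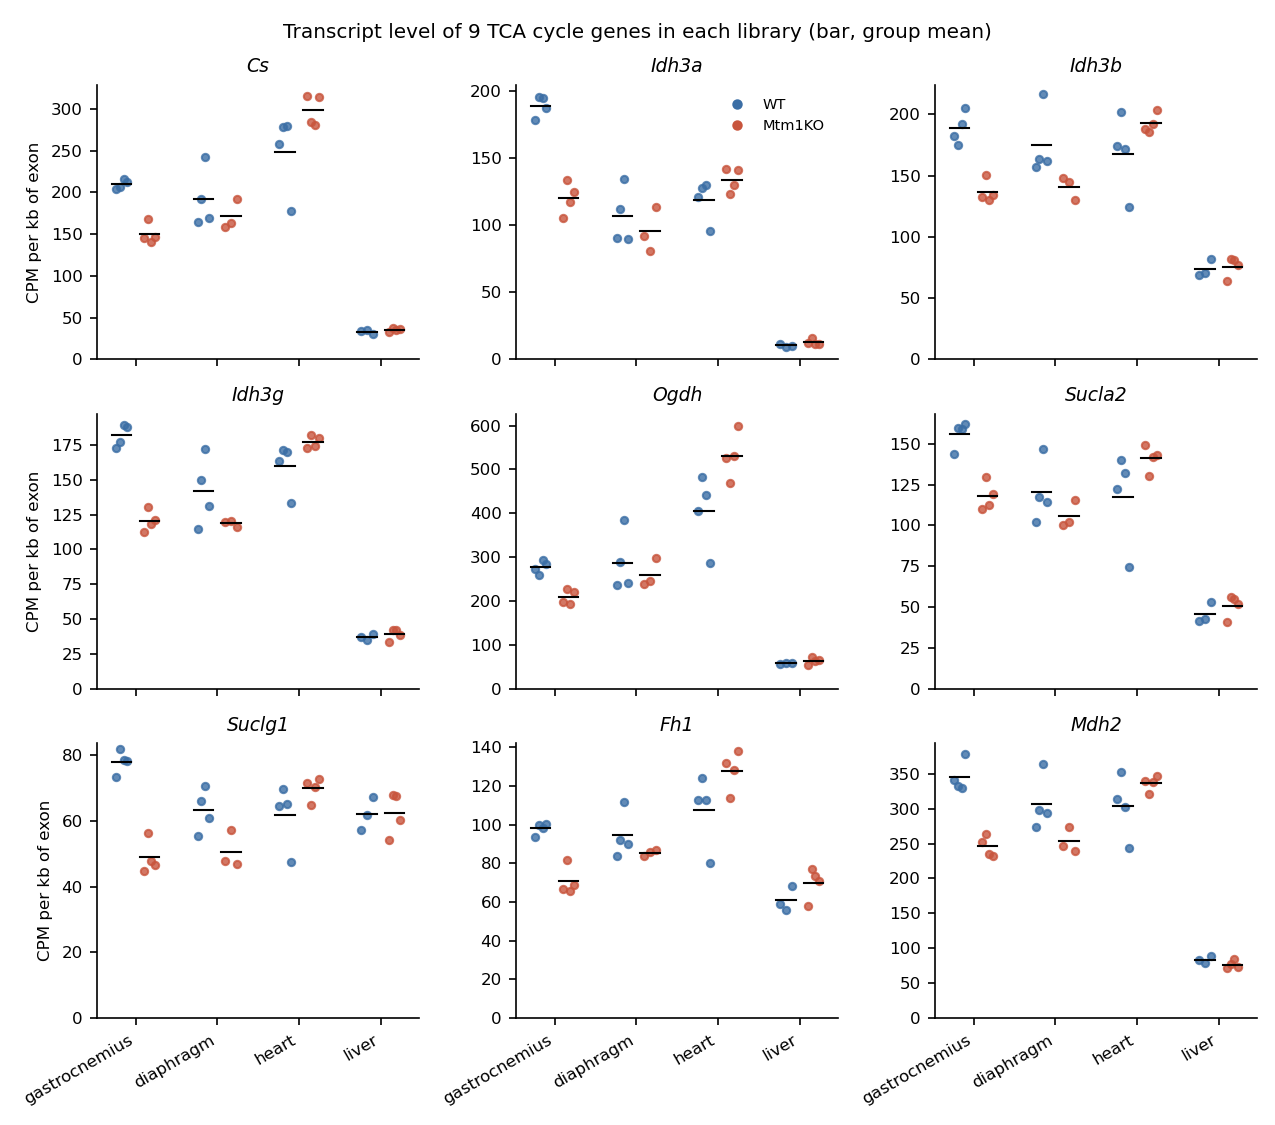
Level of each of the 9 genes in every library, in CPM per kb of exon scaled over all 30 libraries (y axes start at 0), by tissue and genotype; points are libraries and bars are group means. In the gastrocnemius the Mtm1KO points lie below the WT points for all 9 genes, in the heart 1 WT library lies below the others, and Suclg1 is the member whose liver level is closest to that of muscle.

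The order of the tissues was tested in 1 edgeR fit over the 15 WT libraries. All 9 members were higher in gastrocnemius than in liver, where 42.1% of all genes tested passed in that direction. The log2 difference ran from 0.41 ± 0.13 (SE) for Suclg1 (adjusted p = 0.011) to 4.26 ± 0.18 for Idh3a (adjusted p = 8.6e-11), a 19.2-fold difference. Between heart and liver 8 members passed, all higher in heart (background 40.8%), and Suclg1 did not (0.03 ± 0.13, adjusted p = 0.84). The same 8 passed between diaphragm and liver (background 40.6%), with Suclg1 at 0.07 ± 0.13 (adjusted p = 0.64). With library totals alone as the scale, Suclg1 also passed in both contrasts, at 0.58 (background 55.4%) and 0.55 (background 54.1%).

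Among the 3 muscles the largest difference in this fit was -0.86 (Idh3a, diaphragm against gastrocnemius), and the differences depended on the scale. Heart against gastrocnemius gave 4 calls: Ogdh was higher in the heart (0.51 ± 0.18, adjusted p = 0.024; background 32.6%), and Idh3a (-0.71 ± 0.14, adjusted p = 6e-04), Sucla2 (-0.45 ± 0.17, adjusted p = 0.037) and Suclg1 (-0.38 ± 0.12, adjusted p = 0.015) were lower (background 28.7%). Diaphragm against gastrocnemius gave 3 calls, all lower in the diaphragm (background 23.8%): Idh3a (-0.86 ± 0.14), Idh3g (-0.39 ± 0.12) and Suclg1 (-0.34 ± 0.12). Only Ogdh passed between heart and diaphragm (0.49 ± 0.18 higher in heart, adjusted p = 0.035; background 22.1%), and the other 8 did not pass between these tissues. Scaled over all 30 libraries, Ogdh was at 236, 289, 385 and 240 CPM per kb in WT diaphragm 1 to 4. The WT hearts 1 to 4 were at 405, 483, 442 and 286. With 1 library left out in turn, the contrast of heart and diaphragm gave 0 to 2 calls. These contrasts used TMM factors, which set the bulk of genes level between tissues. With library totals alone the median of all genes moved to 0.67 in heart against gastrocnemius, from 0.08 with TMM, and the calls there became 6 higher in the heart (background 58.5%) and 0 lower. In diaphragm against gastrocnemius the calls became 5 higher (background 60.9%) and 1 lower (background 8.56%), Idh3a being the lower one (-0.34). With WT diaphragm 3, the WT library lowest in liver transcripts, as the only diaphragm library, Idh3a was at -0.48, Idh3g at -0.07 and Suclg1 at -0.13. That fit has 1 diaphragm library, takes its spread from the other tissues, and called 0 members.

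In the gastrocnemius of Mtm1KO mice all 9 members were lower than in WT. The edgeR quasi-likelihood test called 9 of 9 (adjusted p under 0.05), where 14.9% of the 15456 genes tested passed in that direction, and the log2 differences ran from -0.39 (Ogdh) to -0.66 (Suclg1). In whole tissue, fewer cells of a type and less RNA per cell cannot be told apart. The values per library are in CPM scaled by TMM within the tissue, WT 1 to 4 and then Mtm1KO 1 to 4.

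At the entry of the cycle, Cs stood at 1085, 1096, 1154 and 1110 CPM in WT and at 775, 893, 758 and 783 CPM in Mtm1KO. The groups did not overlap, and Cs fell by 27.8% (log2 difference -0.47 ± 0.07 SE, adjusted p = 0.0016).

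The 3 subunits of isocitrate dehydrogenase fell together. Idh3a, the catalytic subunit, was at 832, 911, 913 and 860 CPM in WT and at 495, 625, 554.6 and 587 CPM in Mtm1KO. It fell by 35.7% (-0.64 ± 0.08, adjusted p = 0.00068), with no Mtm1KO library near the WT range. Idh3b was at 575, 550, 608 and 635 CPM in WT and at 419, 475, 415 and 425 CPM in Mtm1KO, a log2 difference of -0.45 ± 0.08 (adjusted p = 0.0021). Idh3g was at 429, 439, 473 and 460 CPM in WT and at 279.6, 324, 296 and 302 CPM in Mtm1KO, and fell by 33.2% (-0.58 ± 0.07, adjusted p = 0.00045). Neither Idh3b nor Idh3g overlapped between the genotypes.

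Ogdh, the E1 component that decarboxylates 2-oxoglutarate, was at 1368, 1296, 1473 and 1401 CPM in WT and at 995, 1138, 980 and 1109 CPM in Mtm1KO. It had the smallest difference of the 9 (-0.39 ± 0.08, adjusted p = 0.0054). At the succinyl-CoA synthetase step, Sucla2 was at 528, 584, 586 and 586 CPM in WT and at 406, 476, 417 and 440 CPM in Mtm1KO (-0.39 ± 0.07, adjusted p = 0.0038). Suclg1, the subunit shared by both forms of the enzyme, was at 312, 347, 335 and 327 CPM in WT and at 191, 239.7, 205 and 199 CPM in Mtm1KO. With a fall of 36.8% (-0.66 ± 0.08, adjusted p = 0.00051), it had the largest difference of the 9.

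For the last steps, Fh1 was at 292, 310.4, 308 and 309 CPM in WT and at 209, 256, 208 and 216 CPM in Mtm1KO (-0.46 ± 0.08, adjusted p = 0.0023). Mdh2 was at 1119, 1087, 1084 and 1222 CPM in WT and at 827, 868, 782 and 767 CPM in Mtm1KO (-0.48 ± 0.07, adjusted p = 0.0014). In both, as in the other 7, every Mtm1KO library lay below every WT library, which held for 16.0% of all genes. Mtm1KO 2 was the highest Mtm1KO library for all 9 members.

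**Figure D2:**
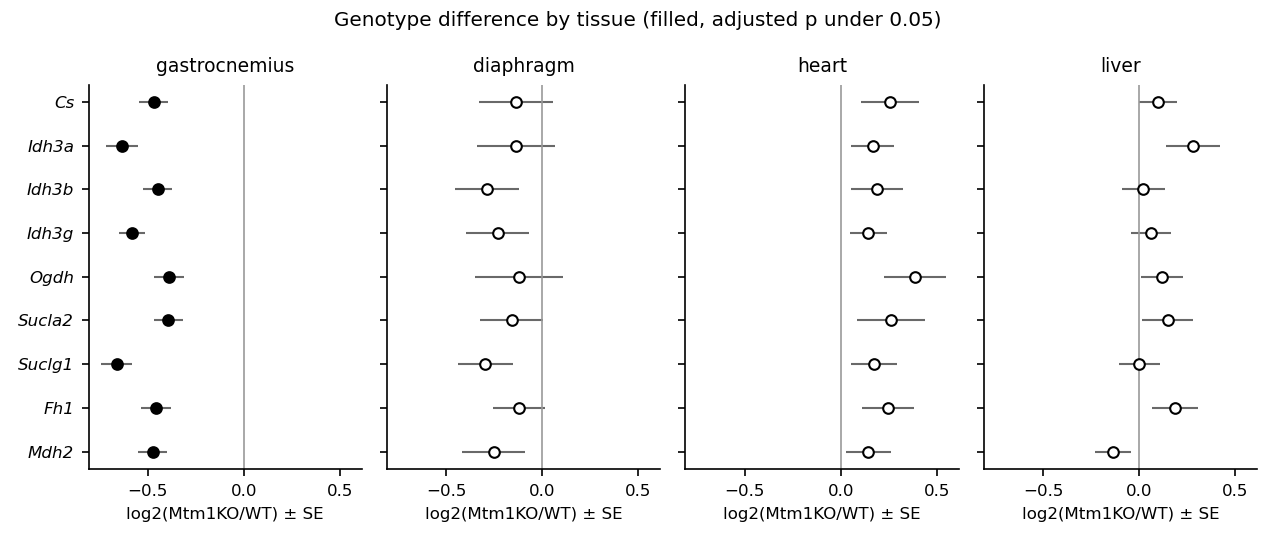
Log2 difference between Mtm1KO and WT for each gene in each tissue; circles are edgeR estimates, bars are ± 1 SE, and filled circles passed at an adjusted p under 0.05. All 9 estimates lie below 0 in gastrocnemius and diaphragm and above 0 in heart, and 9 are filled in the gastrocnemius and 0 elsewhere.

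The size of the fall in the gastrocnemius depended on the scale. The 10 most abundant genes took 26.5% to 28.6% of the counts in WT and 19.9% to 21.4% in Mtm1KO, and the summed members made up 5658 to 6343 CPM of the library totals in WT and 5143 to 5906 in Mtm1KO, which overlap. With library totals alone, without TMM factors, the median of all genes moved to 0.35, from 0.02 with TMM, and the members' median to -0.13, from -0.47. All 9 members still had lower values in Mtm1KO, and 3 were called: Idh3a (-0.30, adjusted p = 0.011), Idh3g (-0.25, adjusted p = 0.014) and Suclg1 (-0.33, adjusted p = 0.007), where 4.19% of genes passed in that direction. None of the 9 passed where a log2 difference beyond 1 was also required, which left 1.79% of genes lower, although all 9 had an unadjusted p under 0.05.

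Other cycle genes fell in the gastrocnemius too. The counts of the lists can be read against the 14.9% of all genes that were lower and the 14.1% that were higher. Of the 9 other subunits of the cycle, 8 were called lower (median -0.36, against 0.02 over all genes): among those with the smallest p were Sdhc (-0.36 ± 0.06) and Sdha (-0.52 ± 0.09) of succinate dehydrogenase, and Dld, the E3 component of 2-oxoglutarate dehydrogenase (-0.44 ± 0.08). Idh2, the NADP-dependent isocitrate dehydrogenase, did not pass (-0.35 ± 0.16, adjusted p = 0.14). Of 27 genes that bring carbon into the cycle or take it out, 12 were lower and 4 higher (median -0.26). Me1, the cytosolic malic enzyme (-0.88 ± 0.09), Slc25a12, an aspartate-glutamate carrier (-0.54 ± 0.06), Me3 (-0.60 ± 0.07) and Pcx, pyruvate carboxylase (-0.69 ± 0.09), had the smallest p among them.

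Of 13 regulators of mitochondrial genes, 3 were lower and 0 higher (median -0.16), where 14.9% and 14.1% of all genes were. The 3 were Ppara (-0.90 ± 0.13), Ppargc1a, the coactivator PGC-1alpha (-0.60 ± 0.13), and Perm1 (-0.53 ± 0.14). Of 18 genes listed as transcript markers of mitochondrial content, 8 were lower (median -0.18), among them Vdac1 (-0.69 ± 0.07), Vdac3 (-0.53 ± 0.09), Vdac2 (-0.38 ± 0.07) and the protease Lonp1 (-0.33 ± 0.06). Mitochondrial content itself was not measured in these libraries. Of 13 genes of the mitochondrial genome, 12 were in the count table and 7 passed the filter on low counts. All 7 were lower (median -0.55), among them mt-Nd2 (-0.60 ± 0.12) and mt-Nd4 (-0.55 ± 0.11).

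Markers of fibre types and of other cells moved with these results, and their counts stand against the same 14.9% of genes lower and 14.1% higher. Of 9 fast-fibre markers, 8 were lower, among them Myh4 (56161 ± 6346 CPM in WT and 28038 ± 5094 in Mtm1KO, SD), and 1 was higher, Myh1 (1.08 ± 0.16), the myosin of another fast fibre type. Their summed level, in CPM of the library totals, was 166445 to 183683 CPM in WT and 120920 to 143688 in Mtm1KO. All 9 macrophage markers were higher, with sums of 45.4 to 84.2 CPM in WT and 175 to 222 in Mtm1KO. Of 12 white adipocyte markers, 8 were higher and 1 lower (Slc2a4, a glucose transporter that muscle fibres also express), and Adipoq, which encodes adiponectin, rose from 3.23 to 11.7 CPM in WT to 15.6 to 24.2 in Mtm1KO. With the adipocyte marker score as a covariate, all 9 members kept lower values (-0.33 to -0.53) and 3 were called: Idh3g, Suclg1 and Mdh2, where 3.77% of genes passed. As Adipoq did not overlap between the genotypes, that fit cannot fully separate the score from genotype. Of the other marker lists, fibroblast genes gave 4 higher and 0 lower of 7, endothelial genes 0 and 3 of 6, slow-fibre genes 0 and 1 of 8, brown adipocyte genes 2 and 1 of 7 tested, hepatocyte genes 1 and 2 of 13 tested, and cardiomyocyte genes 2 and 1 of 5 tested, the lower one being Actc1, a striated muscle actin (-2.17 ± 0.44). The part of the macrophage and fast-fibre markers in the members' difference was not tested.

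In the heart all 9 members had higher values in Mtm1KO than in WT, but none passed. The log2 differences ran from 0.14 (Mdh2) to 0.39 (Ogdh), edgeR called 0 of 9, as did DESeq2 and limma voom, while 0.00656%, 0.461% and 0.00656% of genes passed in these tests (15238 genes in edgeR). At an unadjusted p under 0.05 there was 1, Ogdh (0.39 ± 0.16, adjusted p = 0.55). Ogdh was at 2628, 3078, 2838 and 1848 CPM in WT 1 to 4 and at 3394, 2998, 3377 and 3818 CPM in Mtm1KO 1 to 4, so that the groups overlapped at Mtm1KO 2. Cs was at 1771, 1879, 1901 and 1213 CPM in WT and at 2152, 1923, 1887 and 2122 CPM in Mtm1KO (0.26 ± 0.15, adjusted p = 0.56). Sucla2 was at 580, 651, 619 and 353 CPM in WT and at 704, 608, 659 and 668 CPM in Mtm1KO (0.26 ± 0.18, adjusted p = 0.58).

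WT 4 was the lowest heart library for each of these, and for all the other members. Only Idh3g separated the genotypes without overlap, at 525, 541, 539 and 427 CPM in WT and at 552, 577, 548 and 568 CPM in Mtm1KO (0.14 ± 0.10, adjusted p = 0.58), which 2.10% of all genes did in that direction. Of 12 white adipocyte markers, 10 had lower values in Mtm1KO hearts (median log2 difference of the list -2.50) and 0 were called. Their sums, in which the most abundant listed genes weigh most, were 1380 to 1529 CPM in WT and 1397 to 1455 in Mtm1KO. Without WT 4 the 9 values stayed above 0 but shrank, to 0.06 (Mdh2) to 0.26 (Ogdh), with 0 calls. Adipoq was higher in WT hearts, at 6.78 to 24.2 CPM against 1.62 to 3.15 in Mtm1KO. With the adipocyte marker score as a covariate all 9 values turned below 0 (-0.06 to -0.29), with 0 calls. Adipoq did not overlap between the genotypes here either, so score and genotype cannot be fully told apart in that fit.

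The 9 other subunits of the cycle likewise had higher values in Mtm1KO hearts (median 0.24), with 0 called. Idh2 was at 0.26 ± 0.21. Of the carbon entry and exit genes, the regulators, the mitochondrial content genes and the mitochondrial genome, 0 passed, with medians of 0.12, 0.09, 0.16 and 0.14.

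In the diaphragm all 9 members had lower values in Mtm1KO, from -0.12 (Fh1) to -0.30 (Suclg1), and none passed. EdgeR, DESeq2 and limma voom each called 0 of 9, 0 reached an unadjusted p under 0.05 in edgeR, where 0.0119%, 2.38% and 0.0536% of genes passed (16796 genes in edgeR). Suclg1 had the smallest p (-0.30 ± 0.14, adjusted p = 0.53), with 298, 347, 381 and 327 CPM in WT 1 to 4 and 257, 315 and 254 CPM in Mtm1KO 1, 2 and 4. The groups overlapped for it at Mtm1KO 2. Idh3b was the 1 member without overlap, at 628, 639, 867 and 643 CPM in WT and at 589.9, 591 and 524 CPM in Mtm1KO (-0.29 ± 0.16, adjusted p = 0.61), which 4.57% of genes did in that direction.

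Liver transcripts were spread across both genotypes of the diaphragm. Genes more than 20 times higher in WT liver than in WT heart and gastrocnemius took 13.5%, 8.86%, 0.545% and 10.7% of the counts in WT 1 to 4 and 1.75%, 15.9% and 0.594% in Mtm1KO 1, 2 and 4. As CPM of the remaining counts, the members summed to 7412, 7582, 9038 and 7687 in WT and to 6750, 7297 and 7194 in Mtm1KO. WT 3, low in liver transcripts, was thus the highest library, and each Mtm1KO library lay below each WT library on this scale. With TMM factors from the same genes the sums were 6954, 7862, 9916 and 7259 in WT and 6713, 7041 and 7479 in Mtm1KO, which overlap, as did the sums over all counts. Among the libraries low in liver transcripts, WT 3 against Mtm1KO 1 and 4, the members' median was -0.53 with 0 called and 2 at an unadjusted p under 0.05, which leaves WT with 1 library. Without WT 3 the values of Cs, Idh3a and Ogdh turned to 0.02, 0.02 and 0.07. Markers of other cells varied in the diaphragm too, and Adipoq ranged from 35.7 to 284 CPM. All 12 white adipocyte markers had lower values in Mtm1KO (median -0.81). All 7 fibroblast markers had higher values (median 1.26), as did 48.2% of all genes. In both lists 0 were called, and their part in the members' values was not tested.

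**Figure D3:**
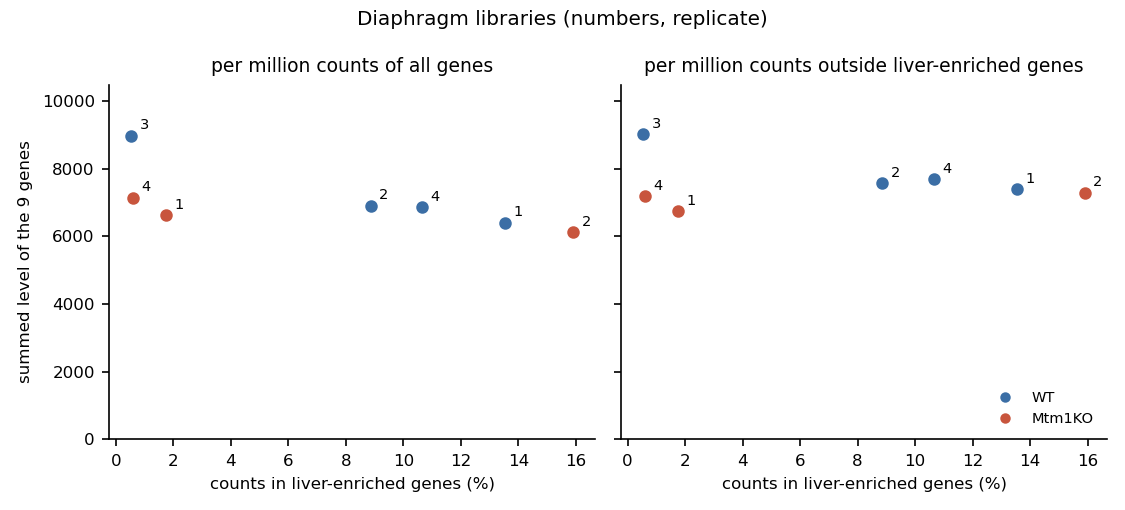
Summed level of the 9 genes in each diaphragm library (y axis, CPM) against the share of counts in liver-enriched genes (x axis, %), as CPM of all counts (left) and of the counts outside those genes (right); the numbers beside the points are replicates. The share runs from 0.545% to 15.9%, WT 3 is highest in both panels, and the genotypes overlap on the left but not on the right, where no TMM factors are applied.

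In the liver 8 members had higher values in Mtm1KO and Mdh2 a lower one (-0.14 ± 0.10, adjusted p = 0.97). None passed, 0 reached an unadjusted p under 0.05 in edgeR, and DESeq2 and limma voom called 0. In these tests 0%, 0.136% and 0% of genes passed (14305 genes in edgeR). Idh3a had the largest difference (0.28 ± 0.14, adjusted p = 0.97), at 45.7, 38.0 and 40.3 CPM in WT 1 to 3 and at 49.7, 61.9, 45.1 and 44.3 CPM in Mtm1KO 1 to 4. The groups overlapped for it, and Suclg1 (0.00 ± 0.11) was at the same mean in both.

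Whether the genotype difference itself differed between tissues was tested by an interaction contrast. Between heart and gastrocnemius 9 of 9 members passed, all with the higher effect in the heart, where 9.94% of the 16627 genes tested passed in that direction. The difference of the log2 effects ran from 0.64 ± 0.14 (Mdh2, adjusted p = 0.0062) to 0.85 ± 0.15 (Suclg1, adjusted p = 0.0016). Idh3a was at 0.82 ± 0.14 (adjusted p = 0.0015), Idh3g at 0.74 ± 0.11 (adjusted p = 0.00079), Ogdh at 0.79 ± 0.19 (adjusted p = 0.0094) and Cs at 0.74 ± 0.17 (adjusted p = 0.0078). Without the heart library WT 4 all 9 remained called, at 0.49 (Sucla2) to 0.73 (Suclg1). With library totals alone the 9 values stayed above 0 (0.23 or more), the median of all genes moved to -0.44, and 3 were called (background 2.44%): Idh3a, Idh3g and Suclg1. Of 12 white adipocyte markers, 8 were called lower in effect in the heart and 1 higher (list median -4.10). Among all genes the shares were 9.89% and 9.94%. The adipocyte marker score was not fitted as a covariate in the contrasts of effects, and its part in them was not tested.

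The other contrasts of effects gave no call. Between heart and diaphragm all 9 differences lay above 0, from 0.32 (Idh3a) to 0.52 (Ogdh), edgeR called 0 and so did DESeq2, where 0.00573% and 1.24% of genes passed. At an unadjusted p under 0.05 there were 4 in edgeR (Idh3b, Idh3g, Suclg1 and Mdh2) and 5 in DESeq2. Between gastrocnemius and diaphragm all 9 lay below 0, from -0.15 (Idh3b) to -0.49 (Idh3a), with 0 called by either tool, where 0.280% and 2.14% of genes passed. At an unadjusted p under 0.05 there were 4 in edgeR (Idh3a, Idh3g, Suclg1 and Fh1) and 5 in DESeq2. For Suclg1 the 95% interval of the latter difference was -0.67 to -0.04. A larger fall in gastrocnemius than in diaphragm was thus not shown. These contrasts share libraries with each other and with the comparisons within tissues.

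**Figure D4:**
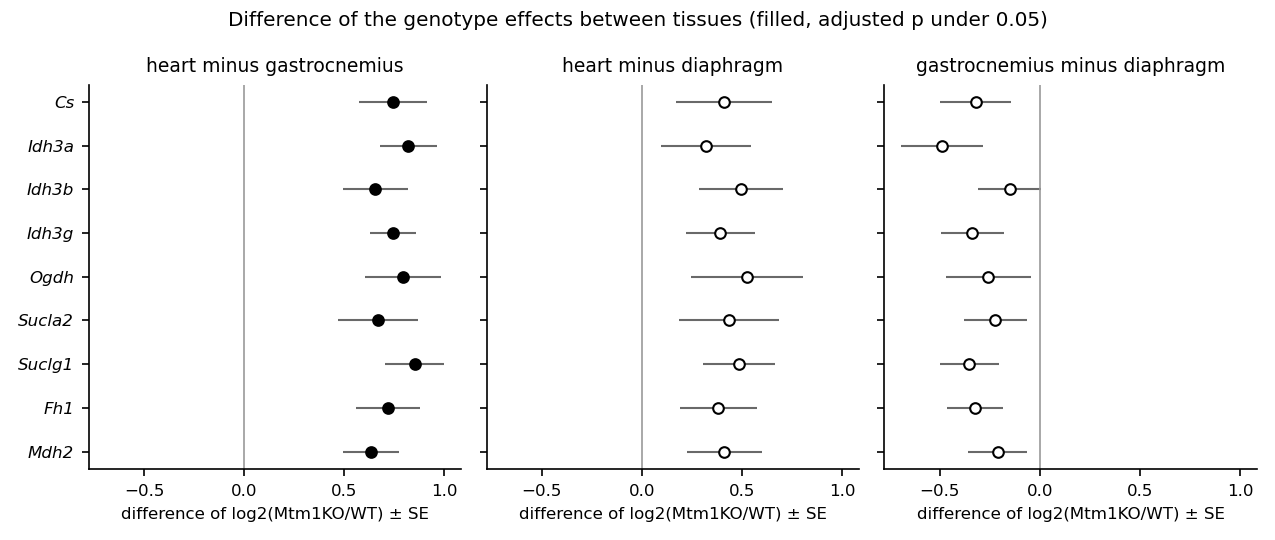
Difference between 2 tissues in the log2 effect of genotype for each gene; circles are edgeR interaction estimates, bars are ± 1 SE, and filled circles passed at an adjusted p under 0.05. The 9 heart minus gastrocnemius values (0.64 to 0.85) are all filled, and none of the other 18 is.

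Ratios of 2 transcripts within a library do not depend on its scale. Per exon length, Suclg2 stood to Sucla2 at 0.0492 ± 0.000481 (SD, n = 4) in WT gastrocnemius, 0.111 ± 0.0247 in diaphragm, 0.113 ± 0.00569 in heart and 0.704 ± 0.0760 (n = 3) in liver, so that the transcript of the GTP-forming subunit was a small fraction of that of the ATP-forming one in muscle and close to it in liver. In the diaphragm the ratio was lowest in the libraries low in liver transcripts: 0.0784 in WT 3 and 0.0610 in Mtm1KO 4, against 0.137 in Mtm1KO 2. In the heart it was 0.112, 0.109, 0.110 and 0.121 in WT and 0.0904, 0.108, 0.101 and 0.0993 in Mtm1KO, without overlap. The log2 difference was -0.18, with an exact two-sided permutation p = 0.0286, the smallest that 4 against 4 allows, and 0.305 after adjustment over the 16 ratio tests.

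Idh3b stood to Idh3a at 1.00 ± 0.0835 in WT gastrocnemius, 1.66 ± 0.153 in diaphragm, 1.41 ± 0.129 in heart and 7.20 ± 1.01 in liver. In the gastrocnemius it was 1.03, 0.894, 0.987 and 1.09 in WT and 1.26, 1.13, 1.11 and 1.07 in Mtm1KO, which overlapped (log2 difference 0.19, exact permutation p = 0.0571, adjusted 0.305). Idh3g to Idh3a (0.963 ± 0.0411 in WT gastrocnemius, 3.59 ± 0.280 in liver) and Ogdh to Cs (1.32 ± 0.0451 in gastrocnemius, 1.76 ± 0.130 in liver) had log2 differences between the genotypes of -0.21 to 0.13. With 4 libraries a group the smallest possible exact p is 0.0286, with 3 in a group it is 0.0571, and over the 16 tests no adjusted p could go below 0.0571, so that none could pass.

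**Figure D5:**
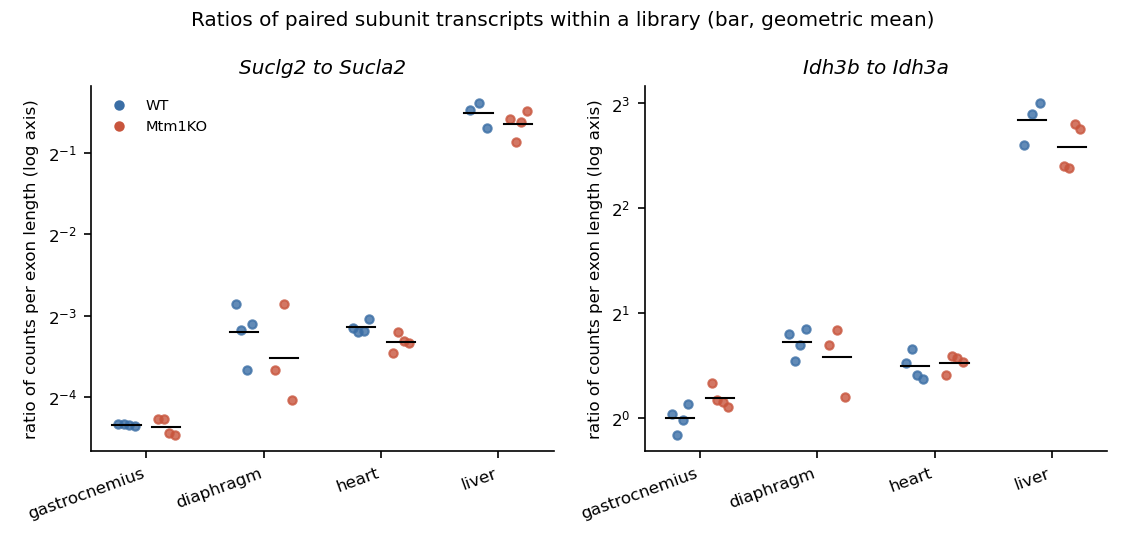
Ratio of 2 transcripts per exon length within each library (log2-spaced y axis) by tissue and genotype for Suclg2 to Sucla2 and Idh3b to Idh3a; points are libraries and bars are geometric means. Both ratios are highest in the liver (0.704 and 7.20 as WT means) and lowest in the gastrocnemius (0.0492 and 1.00).

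Across the 30 libraries the members followed one another, as a description over points that share tissue and genotype. Pearson's r of log2 CPM had a median of 0.94 over the 36 pairs, and a lowest value of 0.12 between Idh3a and Suclg1, the latter being the member that changed least with tissue. Once the group means were taken out, the median was 0.81 and the lowest 0.45. Among 9254 genes compared (mean of at least 10 CPM), those most like the mean profile of the members over all libraries included Ndufv2 (r = 0.991) of complex I, Uqcrc1 (0.990) of complex III, Atp5c1 (0.988), Cox5a (0.985) and Atp5f1 (0.984). For deviations from the group means they were Slc25a3 (0.970), Atp5a1 (0.970), Ndufa9 (0.964), Coq9 (0.945), Uqcrc2 (0.944) and Uqcrfs1 (0.942). These deviations include libraries that stood apart for the summed members. WT heart 4 was at 7047 CPM against 9273 to 9891 in the other WT hearts. WT diaphragm 3 was at 8989 CPM against 6409 to 6911 in the other WT diaphragms. The part of such libraries in the correlations was not tested.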

How the data were processed

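RNA from whole organs was sequenced by the authors as single-end 50-bp reads from stranded mRNA libraries. Per the study's methods, reads were trimmed with cutadapt 1.10, mapped to mm10 with STAR 2.5.3a, and counted per gene with htseq-count 0.6.1p1 in union mode (Ensembl 96), keeping uniquely aligned and unambiguous reads. The deposited values are raw counts for 36103 genes in 30 libraries. Reads shared with near-identical copies were therefore dropped before counting.

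Groups were taken from the labels, and same-numbered samples were not treated as pairs. The study's methods count the samples of each group as separate mice. Counts were filtered with filterByExpr (minimum 10), scaled with TMM, and tested in edgeR 4.0.16 by the quasi-likelihood F test with Benjamini-Hochberg adjustment over all genes of a comparison, at an adjusted p under 0.05. SE is the size of the log2 difference over the square root of F. Each tissue was fitted alone, interactions in pairs of tissues, and WT tissues in 1 fit. Ratios were tested by exact two-sided permutation (scipy 1.17.1). DESeq2 1.42.0, limma 3.58.1 voom, other scalings, no filter and leaving out each library were alternatives. The fit was tested on simulated data. Members and gene lists were chosen with earlier results of these data known. The 9 members were named in every comparison, with up to 4 genes of smallest p per other list, or the 2 most abundant where none passed, and the 6 genes of closest profile by each measure. Idh2 in gastrocnemius, Myh1, Slc2a4 and Actc1 were named after their values were seen. A few genes that this rule or the annotation would name are not reported here. Intervals are 95% and cover the spread between libraries.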

Additional observations from a re-analysis of the deposited data

Results flagged for a closer look

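The genotype effect differed between heart and gastrocnemius by the interaction test for all 9 members: Cs by 0.74, Idh3a by 0.82, Idh3b by 0.66, Idh3g by 0.74, Ogdh by 0.79, Sucla2 by 0.67, Suclg1 by 0.85, Fh1 by 0.72 and Mdh2 by 0.64 on the log2 scale. In each, the value was lower in Mtm1KO than in WT in gastrocnemius and higher in heart, where the test within the tissue did not pass. With the adipocyte marker score as a covariate within the heart, all 9 values turned below 0. No such fit was run for the contrast between the tissues.

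In 6 of 78 groups with 4 libraries, 1 library lay far from the other 3, where chance alone would give about 1 in 20 if the groups were independent, which members of one library are not. Idh3g was lowest in WT heart 4, at 427 CPM. Idh3b was highest in WT diaphragm 3, at 867 CPM, and in Mtm1KO gastrocnemius 2, at 475 CPM. Fh1 and Sucla2 were lowest in WT gastrocnemius 1, at 292 and 528 CPM. The log2 ratio of Ogdh to Cs per length was highest in Mtm1KO gastrocnemius 4, at 0.58.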

How the results depend on the processing

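The 9 calls in gastrocnemius held when each library was left out in turn (9 in all 8 fits), with DESeq2, limma voom, DESeq2 size factors and no filter, and 7 held in a fit of all 30 libraries. They became 0 when a log2 difference beyond 1 was also required, 3 with library totals without TMM and 3 with the adipocyte score as a covariate. Heart minus gastrocnemius gave 3 with library totals and 8 to 9 when 1 library was left out. In heart, diaphragm, liver and the other 2 effect contrasts the count stayed 0 under each alternative run. For WT heart against gastrocnemius there were 2 without the filter and 2 to 4 with 1 library left out (2 without WT gastrocnemius 2). For WT heart against diaphragm there were 0 without the filter, 2 with DESeq2, 2 with library totals, 0 with WT diaphragm 3 alone, and 0 to 2 with 1 library left out. It was 2 without WT diaphragm 3 or WT heart 4, and 0 without any one of the others. For WT diaphragm against gastrocnemius there were 1 without the filter, 6 with library totals, 0 with WT diaphragm 3 alone, and 1 to 4 with 1 library left out (1 without WT diaphragm 1 or 4). The cause was not tested.

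Some values turned. With the adipocyte covariate in heart, Cs was at -0.11, Idh3a at -0.090, Idh3b at -0.20, Idh3g at -0.061, Ogdh at -0.11, Sucla2 at -0.29, Suclg1 at -0.15, Fh1 at -0.11 and Mdh2 at -0.14. In liver, library totals gave Idh3b -0.019 and Suclg1 -0.040, and limma voom gave Suclg1 -0.019. For gastrocnemius minus diaphragm, library totals gave Idh3b 0.13, Ogdh 0.016, Sucla2 0.059 and Mdh2 0.075. For WT heart against gastrocnemius, library totals gave Idh3b 0.38, Idh3g 0.37, Sucla2 0.13, Suclg1 0.21 and Mdh2 0.37. For WT heart against diaphragm, library totals gave Idh3b 0.0043, Sucla2 0.022, Suclg1 0.030 and Mdh2 0.045, WT diaphragm 3 alone gave Idh3a -0.20, Idh3g -0.13 and Fh1 -0.086, and Mdh2 was at 0.000985 with DESeq2 size factors and 0.0028 with DESeq2. For WT heart against liver, Suclg1 was at -0.0090 with DESeq2 size factors and -0.00090 with DESeq2. For WT diaphragm against gastrocnemius, library totals gave Cs 0.35, Idh3b 0.38, Idh3g 0.13, Sucla2 0.11, Suclg1 0.18, Fh1 0.44 and Mdh2 0.32, WT diaphragm 3 alone gave Cs 0.22, Idh3b 0.21, Fh1 0.20 and Mdh2 0.086, and Ogdh was at -0.012 with DESeq2 size factors and -0.0098 with DESeq2.

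With 1 library left out, other values turned. In diaphragm, Cs ran from -0.22 to 0.018, Idh3a from -0.28 to 0.016 and Ogdh from -0.22 to 0.074. In liver, Idh3b ran from -0.019 to 0.095 and Suclg1 from -0.049 to 0.054. In WT heart against diaphragm, Sucla2 ran from -0.17 to 0.059, Suclg1 from -0.15 to 0.0029 and Mdh2 from -0.13 to 0.0024. Suclg1 ran from -0.027 to 0.12 in WT heart against liver. In WT diaphragm against gastrocnemius, Ogdh ran from -0.057 to 0.17 and Fh1 from -0.11 to 0.036. The log2 ratio Idh3b to Idh3a ran from -0.28 to 0.045 in diaphragm and -0.00374 to 0.092 in heart, Idh3g to Idh3a from -0.21 to 0.064 in diaphragm and -0.076 to 0.017 in heart, Suclg2 to Sucla2 from -0.053 to 0.012 in gastrocnemius, and Ogdh to Cs from -0.020 to 0.076 in liver.

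In no tissue did all pairs of same-numbered WT and Mtm1KO libraries correlate above 0.1 (correlations of 0.00029 to 0.095 in gastrocnemius, -0.71 to 0.52 in diaphragm, -0.60 to 0.33 in heart and -0.0015 to 0.45 in liver), and 1, 1, 1 and 2 WT libraries correlated best with their own number. With the replicate number as a block within a tissue, 9 members were called in gastrocnemius and 0 in each other tissue. Ogdh turned to 0.053 in diaphragm. In the contrasts between tissues the block instead joined same-numbered libraries of a genotype across tissues. That gave 8 calls in heart minus gastrocnemius, and Ogdh at -0.0046 in WT diaphragm against gastrocnemius. The sources used here do not say whether such libraries came from the same mouse. The main fits treated them as independent.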
